A study of Mus musculus with 2 samples.

Results

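The 10 genes described here encode hormones and other factors that fat cells secrete: Adipoq, Retn, Cfd, Lep, Rarres2, Lcn2, Nampt, Rbp4, Apln and Metrnl. They were taken by symbol from the 23282 rows of read counts, and each symbol had 1 row. RNA came from 3T3-L1 cells, an established mouse fibroblast line that can turn into adipocytes in culture, given either an siRNA against Pink1 (labelled sipink) or a control siRNA (labelled control). Pink1 encodes a mitochondrial kinase, and the series title sets the comparison within age-related bone loss. Each group was 1 library of 1 culture of 1 cell line, so no difference below has a replicate check and no p-value is given. The labels call the cells murine adipocytes but give neither the days of differentiation nor the time after transfection.

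Adipokines are proteins through which fat tissue acts on other organs. Adiponectin, from Adipoq, raises insulin sensitivity, while resistin, from Retn, is linked to insulin resistance in mice. Leptin signals the size of fat stores to the brain. Adipsin, from Cfd, is a protease of the complement system, and chemerin, from Rarres2, is secreted as a precursor and attracts immune cells after cleavage. Most of these genes are switched on as preadipocytes become adipocytes, under PPAR-gamma and C/EBP transcription factors. The counts measure RNA and say nothing of how much protein was secreted.

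The Pink1 siRNA library held 14214768 counts and the control library 13803174. Pink1 had 351 counts in the Pink1 siRNA library and 511 in the control library, a ratio of 0.687 (95% counting interval 0.598 to 0.788). This is short of a 1.5-fold difference. A widened interval, which takes in how far genes of similar level differed beyond counting error, ran from 0.445 to 1.05 and included 1, and 23 of 583 such genes, Pink1 included, had a ratio as low or lower. All 12 listed adipocyte markers beside the adipokines were measured, and their levels summed to 2765 CPM (counts per 1000000 of the effective library size) in the Pink1 siRNA library and 2596 CPM in the control library. Fabp4 and Lpl made up most of these sums. Of the 12 markers, 6 had a ratio above 1, up to 1.35 for Cd36. The other 6 had a ratio below 1, among them Acsl1 at 0.764, Plin1 at 0.607 and Slc2a4 at 0.510. The widened intervals of Cd36, Acsl1, Plin1 and Slc2a4 all included 1. Of 10 preadipocyte and fibroblast markers 8 were measured, led by Dlk1. The list summed to 14622 CPM in the Pink1 siRNA library and 12967 CPM in the control library. Among the measured markers 7 had a ratio above 1 and 1 below, Fbn1 at 0.839. Pi16 had the highest ratio, 3.45 (2.07 to 5.99), from 69 counts in the Pink1 siRNA library and 20 in the control library. Thy1 was next at 1.47. The widened intervals of Pi16 (from 1.01), Thy1, Col1a1 and Dlk1 lay above 1, and that of Fbn1 included 1. Both libraries therefore held RNA of adipocyte and preadipocyte genes, and in such bulk RNA fewer cells of a type and less RNA per cell cannot be told apart. Of 8 macrophage markers 1 was measured (Cd68), Adgre1, Itgam and Tyrobp had 0 counts, and the list summed to 4.14 CPM in the Pink1 siRNA library and 5.50 CPM in the control library. Of 6 endothelial markers none was measured, Cdh5, Kdr, Tek and Tie1 had 0 counts, and the list summed to 7 counts in the Pink1 siRNA library and 13 in the control library. The 6 thermogenic adipocyte markers were all below the minimum, with sums of 0.785 CPM in the Pink1 siRNA library and 0.928 CPM in the control library. Among them Dio2 had 0 counts in both libraries. Among 6 osteoblast markers 1 was measured, Runx2, at 217 counts in the Pink1 siRNA library and 419 in the control library. Its ratio was 0.518 (0.438 to 0.612), and its widened interval, 0.315 to 0.835, lay below 1. Sp7 and Bglap had 0 counts in both libraries.

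Adipoq was chosen as an abundant hormone gene with a ratio near 1, and Lep as a hormone gene with no reads. Lcn2 at 1.66 and Retn at 1.49 were chosen as the 2 with the highest ratios. Promoter windows of these 4 genes are shown. Each runs from 250 bases before to 50 bases after the RefSeq gene start, 5′ to 3′ on the gene's own strand, and capitals mark matches to the motifs named below (RefSeq, GRCm38.p6, which is mm10).
Adipoq, chr16:23146286-23146585, plus strand: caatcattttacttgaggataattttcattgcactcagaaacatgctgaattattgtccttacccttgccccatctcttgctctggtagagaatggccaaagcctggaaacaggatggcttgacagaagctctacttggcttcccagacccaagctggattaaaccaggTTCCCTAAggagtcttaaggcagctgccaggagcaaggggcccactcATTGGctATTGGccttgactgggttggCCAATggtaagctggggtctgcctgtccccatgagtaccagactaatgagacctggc
Retn, chr8:3655520-3655819, plus strand: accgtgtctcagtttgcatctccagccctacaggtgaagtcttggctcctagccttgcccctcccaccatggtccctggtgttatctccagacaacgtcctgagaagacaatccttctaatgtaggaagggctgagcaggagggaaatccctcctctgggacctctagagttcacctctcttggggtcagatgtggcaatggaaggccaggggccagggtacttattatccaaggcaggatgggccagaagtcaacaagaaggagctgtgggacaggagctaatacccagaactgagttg
Lcn2, chr2:32387690-32387989, minus strand: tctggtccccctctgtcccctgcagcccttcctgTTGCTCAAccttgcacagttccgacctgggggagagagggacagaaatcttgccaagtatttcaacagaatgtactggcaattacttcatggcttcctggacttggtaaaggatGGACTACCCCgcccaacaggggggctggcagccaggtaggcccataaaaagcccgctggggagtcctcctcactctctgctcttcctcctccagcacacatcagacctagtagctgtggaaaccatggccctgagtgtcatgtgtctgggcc
Lep, chr6:29059971-29060270, plus strand: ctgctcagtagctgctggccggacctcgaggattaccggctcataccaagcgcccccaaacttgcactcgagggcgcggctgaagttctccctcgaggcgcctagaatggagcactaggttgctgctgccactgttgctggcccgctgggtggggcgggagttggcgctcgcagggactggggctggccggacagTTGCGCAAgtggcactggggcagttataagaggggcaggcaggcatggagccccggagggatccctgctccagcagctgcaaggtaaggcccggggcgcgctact

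The motifs searched on both strands were a C/EBP-like TTNNGNAA, an NF-kB-like motif of GGG and TCC with any 4 bases between them, the CCAAT box CCAAT, the TATA box TATAAA and a DR1 element of the kind PPAR-gamma binds, which is AGGTCA repeated after any 1 base. None overlapped another in these windows. The Lep window held 1 C/EBP-like match, at position -55 from the start, and C/EBP-alpha is known to activate the Lep promoter. The Adipoq window held 1 C/EBP-like match at position -81 and 3 CCAAT boxes. The Lcn2 window held 1 C/EBP-like match at position -216 and 1 NF-kB-like match at position -102. The Retn window held no match to the motifs as written here. Its stretch gggaaatccc was not counted, since it ends in CCC where the NF-kB-like motif asked for TCC. Other forms of the NF-kB motif were not searched, so the windows of Lcn2 and Retn cannot be contrasted on it. Of 32851 windows of this length, 40.7% held the C/EBP-like motif, 19.2% the NF-kB-like motif, 37.4% a CCAAT box, 13.6% a TATA box and 0.0396% the DR1 element. Among the 9 adipokines with a window, 4 held the C/EBP-like motif, 2 the NF-kB-like motif, 2 a CCAAT box, 1 a TATA box and 0 the DR1 element. The matches are descriptions of the letters, and none is a mapped binding site.

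Of the 10 adipokines, 8 were measured, which here means at least 40 counts in both libraries together, and 2 had no read in either library. The levels ranged in CPM from Apln, the lowest, to Adipoq, the highest, and which genes stood high or low was much the same in the Pink1 siRNA library and the control library. Together the 10 genes gave 9935 counts in the Pink1 siRNA library and 9094 in the control library, which is 0.0699% of all counts in the Pink1 siRNA library and 0.0659% in the control library. Adipoq alone gave 43.4% of these reads in the Pink1 siRNA library and 47.7% in the control library. Cfd gave 19.7% in the Pink1 siRNA library and 19.2% in the control library, and Nampt gave 20.9% in the Pink1 siRNA library and 15.9% in the control library.

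**Figure D1:**
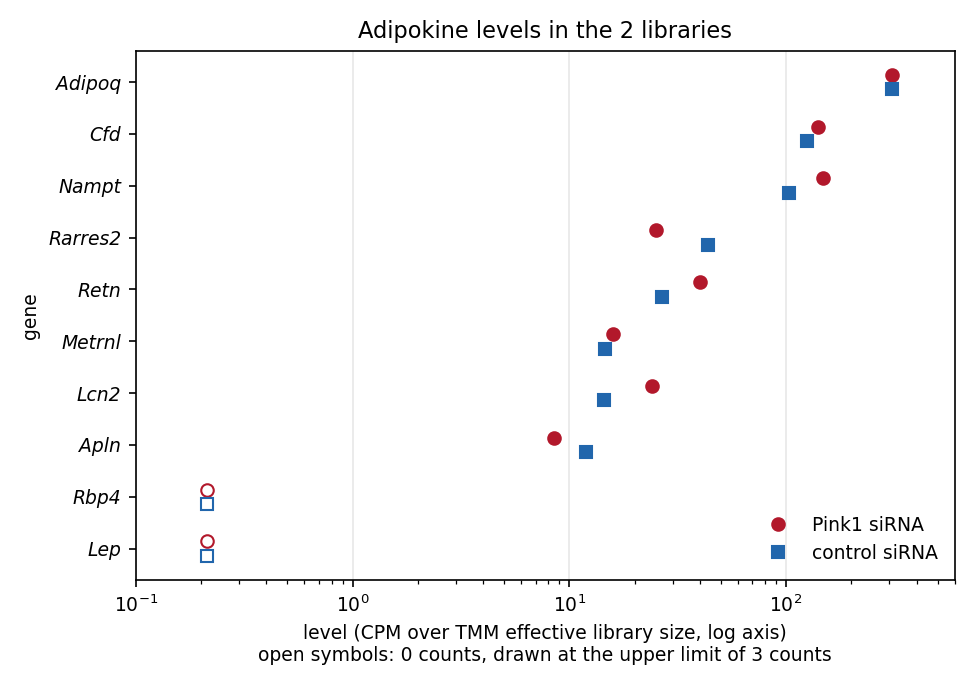
Level of each adipokine in CPM over the effective library size, on a log axis, with the Pink1 siRNA library as circles above the control library as squares. Open symbols mark genes with 0 counts, drawn at the limit of 3 counts (0.214 CPM). Adipoq was the most abundant at 308 CPM in the Pink1 siRNA library and 310 CPM in the control library, and Rarres2, Lcn2, Retn and Nampt show the widest gaps between symbols.

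Levels of different genes were set side by side per kilobase of the longest annotated transcript without retained introns. On that scale the order in the Pink1 siRNA library was Adipoq, Cfd, Retn, Nampt, Rarres2, Lcn2, Metrnl and Apln. In the control library it was Adipoq, Cfd, Rarres2, Retn, Nampt, Lcn2, Metrnl and Apln, so Rarres2 ranked 5 in the Pink1 siRNA library and 3 in the control library. Adipoq stood at 238 CPM per kilobase in the Pink1 siRNA library and 240 in the control library, and Apln at 2.70 in the Pink1 siRNA library and 3.81 in the control library. Counting intervals of neighbours overlapped for Retn (32.4 to 38.3 CPM per kilobase), Nampt (31.3 to 34.2) and Rarres2 (28.4 to 35.1) in the Pink1 siRNA library, and there that of Rarres2 also overlapped that of Lcn2 (23.5 to 29.2). In the control library only those of Retn (21.2 to 26.1) and Nampt (21.6 to 23.9) overlapped. In plain CPM the order differs, since Nampt has a transcript of 4527 bases and ranked 2 in the Pink1 siRNA library and 3 in the control library. The labels name a Quant-Seq kit, a kit type that reads transcripts near their 3′ ends. Where reads fall was not checked here. If they are such 3′ tags, counts need not grow with transcript length and the order in plain CPM applies, and otherwise the order per kilobase does.

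The circulating hormones made only or mainly by adipocytes differed among themselves. Their ratios were 0.994 for Adipoq, 1.12 for Cfd and 1.49 for Retn, all short of a 1.5-fold difference, and leptin RNA was not detected. Adipoq, on chromosome 16 from 23146536 to 23158028 (mm10), had 4309 counts in the Pink1 siRNA library and 4337 in the control library. That is 308 CPM in the Pink1 siRNA library and 310 CPM in the control library, a ratio of 0.994 with a counting interval of 0.952 to 1.04. The widened interval of Adipoq was far broader, 0.598 to 1.65. Cfd, on chromosome 10 from 79890853 to 79892655, had 1959 counts in the Pink1 siRNA library and 1750 in the control library. Its level was 140 CPM in the Pink1 siRNA library and 125 CPM in the control library, a ratio of 1.12 (1.05 to 1.19). The difference in Cfd exceeded counting error, but 162 of the 583 genes in its twentieth of mean level, itself included, had a ratio as high or higher.

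Retn, a cysteine-rich hormone gene on chromosome 8 from 3655770 to 3660110, had 562 counts in the Pink1 siRNA library and 376 in the control library. The level was 40.1 CPM in the Pink1 siRNA library and 26.8 CPM in the control library, a ratio of 1.49 (1.31 to 1.71) and a log2 ratio of 0.58. In its twentieth of level, 10 of 583 genes, itself included, had a ratio as high or higher. Its widened interval, in which both counts are divided by the excess spread (9.58-fold for Retn), ran from 0.981 to 2.30 and included 1. Per 100 Adipoq reads there were 13.0 Retn reads in the Pink1 siRNA library and 8.67 in the control library. This ratio of ratios does not depend on how the libraries are scaled, and was 1.504 (exact conditional interval 1.31 to 1.73). That interval covers counting error only and was not widened for the excess spread of either gene.

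Lep, the leptin gene on chromosome 6 from 29060220 to 29073877, and Rbp4, the retinol carrier gene on chromosome 19 from 38116629 to 38125281, had 0 counts in both libraries. A floor of 3 counts for a gene with no read puts the limit on their levels at 0.214 CPM in either library. No direction can be given for either gene. The retinol and leptin axes were low on the receiving side too, with 7 counts in the Pink1 siRNA library and 17 in the control library for Stra6, the Rbp4 receptor, and 1 in the Pink1 siRNA library and 2 in the control library for Lepr, the leptin receptor.

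Lcn2, Nampt and Rarres2 encode factors tied to inflammation and immunity, with ratios of 1.66, 1.44 and 0.573, of which that of Nampt is short of a 1.5-fold difference. Lcn2, lipocalin 2, which sequesters bacterial iron carriers, lies on chromosome 2 from 32384633 to 32388252. It had 336 counts in the Pink1 siRNA library and 202 in the control library, or 24.0 CPM in the Pink1 siRNA library and 14.4 CPM in the control library. Its ratio was 1.66 (1.39 to 1.99), and 8 of 583 genes of similar level, itself included, had a ratio as high or higher. The widened interval of Lcn2, 0.997 to 2.83, included 1. Lcn2 gave 7.80 reads per 100 Adipoq reads in the Pink1 siRNA library and 4.66 in the control library.

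Nampt, whose product is the rate-limiting enzyme of NAD salvage and is also found outside cells as visfatin, lies on chromosome 12 from 32819545 to 32853349. It had 2076 counts in the Pink1 siRNA library and 1442 in the control library, or 148 CPM in the Pink1 siRNA library and 103 CPM in the control library. The ratio was 1.44 (1.35 to 1.54; widened 1.05 to 1.98), and 10 of 583 genes of similar level, itself included, had a ratio as high or higher. Both its intervals therefore lay above 1 although its ratio was under 1.5. The noncoding RNA gene Gdap10 lies inside the Nampt gene on the same strand, over 5033 bases, but shares 0 exonic bases with it. Gdap10 had 238 counts in the Pink1 siRNA library and 240 in the control library, a ratio of 0.992. Whether reads in the intron went to Nampt was not stated in the sources used here, and with both genes summed the log2 ratio was 0.46, against 0.53 for Nampt alone. If a read was counted for both genes, this sum too holds it more than once.

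Rarres2, the chemerin gene on chromosome 6 from 48569696 to 48572789, was the lowest of the 8 measured adipokines by ratio. It had 352 counts in the Pink1 siRNA library and 614 in the control library, or 25.1 CPM in the Pink1 siRNA library and 43.8 CPM in the control library. The ratio was 0.573 (0.501 to 0.655; widened 0.371 to 0.873), a log2 ratio of -0.80. In its twentieth of level, 4 of 583 genes, itself included, had a ratio as low or lower. Per 100 Adipoq reads there were 8.17 Rarres2 reads in the Pink1 siRNA library and 14.2 in the control library.

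The count of Rarres2 may not be its own. The gene runs toward Lrrc61, a leucine-rich repeat gene on the opposite strand, and the pair overlap over 1027 bases at their 3′ ends, 328 of them exonic in both. The last 3 of the 6 exons of the mapped Rarres2 transcript lie inside the last exon of Lrrc61. Lrrc61 had 448 counts in the Pink1 siRNA library and 650 in the control library, a ratio of 0.689 (0.610 to 0.779), so it was lower as well. Whether strand was used in counting is not given in the sources used here. Without strand, reads within the overlap cannot be assigned to 1 of the 2 genes, while reads in the rest of each gene can. The overlap holds the 3′ ends of both genes, so if the reads are 3′ tags most of them could fall there. Where they fall was not checked. Summed, the 2 genes had 800 counts in the Pink1 siRNA library and 1264 in the control library, a log2 ratio of -0.66. If a read in the overlap was counted for both genes, this sum holds it more than once, which was not checked.

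**Figure D2:**
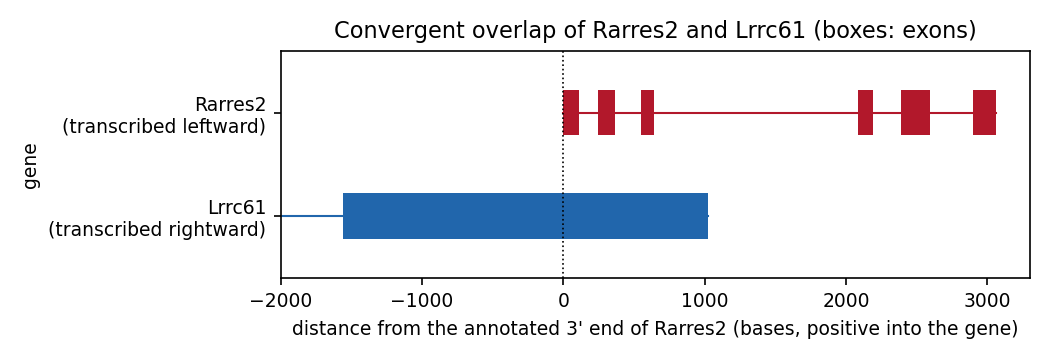
Exons (boxes) of the longest annotated Rarres2 and Lrrc61 transcripts without retained introns, by distance in bases from the annotated 3′ end of Rarres2 (dotted line), with the far exons of Lrrc61 left off the axis. The last exon of Lrrc61 covers the last 3 exons of Rarres2 and ends 1026 bases inside that gene.

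Apln and Metrnl, signalling factors that other cells also make, were the least abundant of the measured genes per kilobase. Apln encodes apelin, the ligand of a G protein-coupled receptor, and lies on chromosome X from 48025146 to 48034853. It had 119 counts in the Pink1 siRNA library and 168 in the control library, or 8.50 CPM in the Pink1 siRNA library and 11.99 CPM in the control library. The ratio was 0.708 (0.555 to 0.901; widened interval including 1), and 86 of 583 genes of similar level had one as low or lower. Metrnl, meteorin-like, on chromosome 11 from 121701544 to 121716306, had 222 counts in the Pink1 siRNA library and 205 in the control library. Its ratio of 1.08 had a counting interval of 0.892 to 1.32, so a difference was not detectable at this depth.

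**Figure D3:**
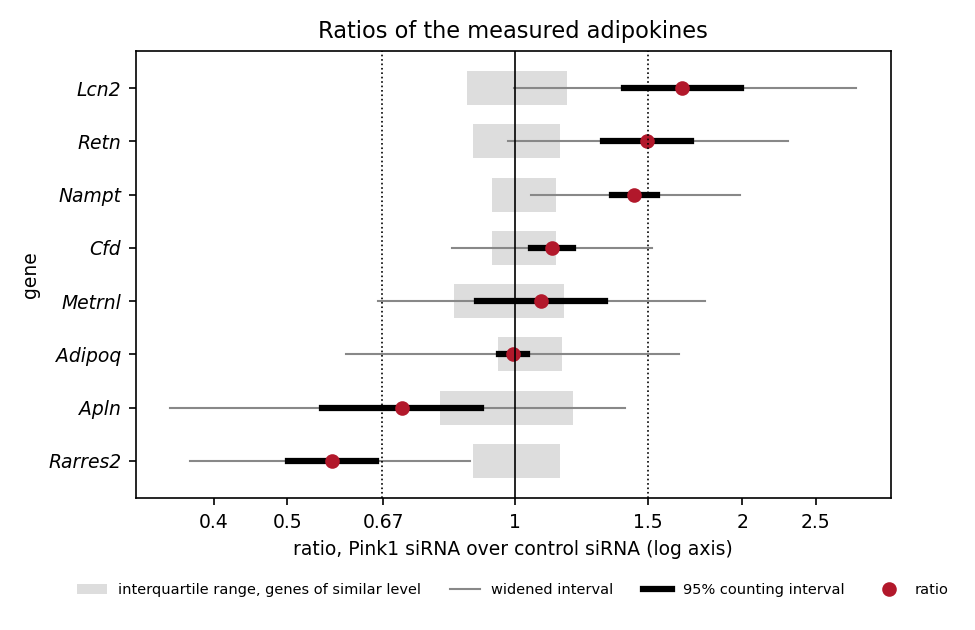
Ratio of each measured adipokine, Pink1 siRNA over control siRNA, on a log axis, with its 95% counting interval (thick line), widened interval (thin line) and the interquartile range of genes in the same twentieth of level (grey). Dotted lines mark ratios of 1.5 either way and the solid line equal levels. Rarres2 at 0.573 and Lcn2 at 1.66 lie beyond the dotted lines, with Retn at 1.49 just inside.

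The rule for a call asked for a difference of at least 1.5-fold in either direction together with a counting interval that did not hold 1. By this rule 1 of the 8 measured adipokines was higher, Lcn2, where 5.43% of the 11660 measured genes were, and 1 was lower, Rarres2, where 6.64% of all were. A call for 1 of 8 genes in each direction is too few to set against those shares, and it is no result about adipokines as a group. At a ratio of 2, no adipokine was called, against 1.63% of all measured genes higher and 2.39% lower. With the widened interval at a ratio of 1.5, 0 adipokines were higher and 1 was lower (Rarres2), against 1.36% of all measured genes higher and 1.62% lower. The median log2 ratio of the 8 was 0.14, beside 0.00 for all measured genes. A ratio above 1 was seen for 5 of the 8 and for 51.1% of all measured genes, and 8 genes are too few to set against that share.

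**Figure D4:**
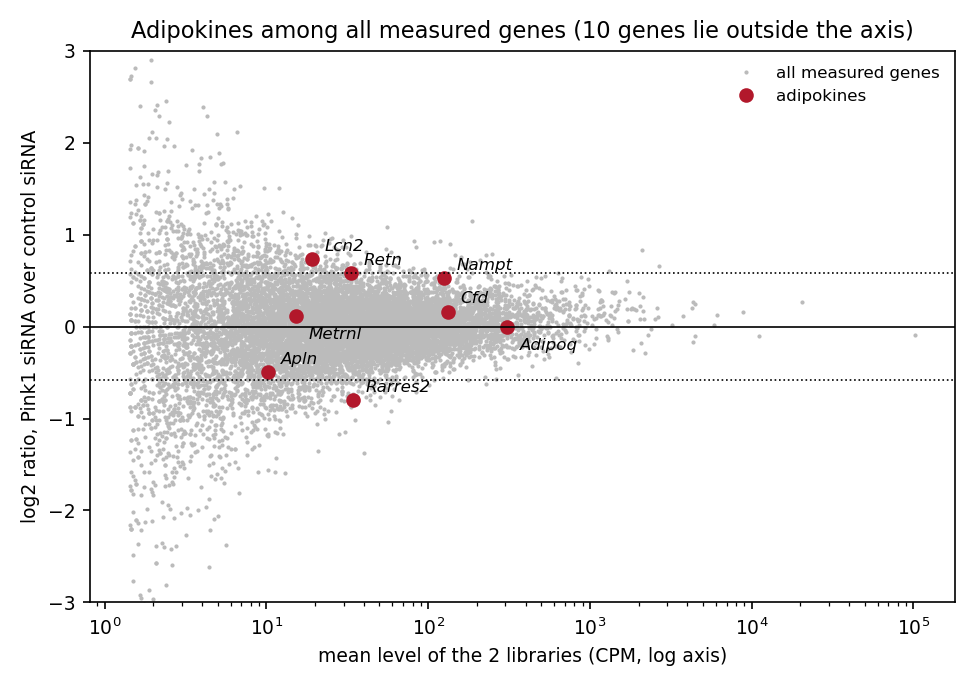
Log2 ratio, Pink1 siRNA over control siRNA, against the mean level in CPM (log axis) for all 11660 measured genes (grey) and the 8 measured adipokines (red), with 10 genes outside the vertical axis. Dotted lines mark ratios of 1.5. Rarres2 at -0.80 lies at the lower edge of the cloud at its level, and Lcn2 at 0.73, Retn at 0.58 and Nampt at 0.53 at the upper edge.

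Genes around the adipokines were described as 8 lists: receptors, adiponectin folding, complement, NAD, retinoids, transcriptional regulators, other secreted factors and acute-phase genes. Of their 153 genes, 101 were measured, with 5 higher and 5 lower by the 1.5-fold rule and a median log2 ratio of 0.07. These shares too are close to the 5.43% and 6.64% of all measured genes.

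Of the 15 listed receptors and surface binding proteins, 7 were measured and none was called in either direction (median log2 ratio -0.09). The adiponectin receptor gene Adipor1 had 805 counts in the Pink1 siRNA library and 660 in the control library (ratio 1.22, 1.10 to 1.35). Its relative Adipor2 had 922 in the Pink1 siRNA library and 1082 in the control library (ratio 0.852, 0.780 to 0.931), on the other side of 1. Cdh13, the T-cadherin that binds adiponectin, had a ratio of 0.905 and the insulin receptor gene Insr one of 0.937. Cap1, a resistin-binding protein in human monocytes, was at 1.02 and overlaps Ppt1 by 129 exonic bases, while Tlr4 was at 0.940. Slc22a17, a lipocalin 2 receptor gene, had 116 counts in the Pink1 siRNA library and 147 in the control library, with an interval of 0.613 to 1.01. The chemerin receptor genes Cmklr1 and Gpr1 had 0 counts each in the Pink1 siRNA library and 3 each in the control library, and the third chemerin-binding receptor gene, Ccrl2, had none in either. Aplnr, the apelin receptor gene, and Kit, which binds meteorin-like, also had 0 counts in both libraries, and Lrp2 had 3 in the Pink1 siRNA library and 4 in the control library. Receptor or binding-protein RNA was thus measured for adiponectin, resistin and lipocalin 2 but not for leptin, chemerin, apelin, meteorin-like or Rbp4.

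All 13 genes for folding and secreting adiponectin were measured, and 2 were lower and 0 higher by the rule (median log2 ratio -0.06). Gstk1, also called DsbA-L and known to promote adiponectin multimer assembly, had 36 counts in the Pink1 siRNA library and 71 in the control library (ratio 0.507, 0.330 to 0.768). The disulphide isomerase gene Pdia4 had 1105 counts in the Pink1 siRNA library and 1717 in the control library (ratio 0.644), and of these 2 only Pdia4 kept its call with the widened interval. The retention chaperone gene Erp44 was at a ratio of 0.839 and the oxidase gene Ero1l at 0.796, and these act together on adiponectin thiols in the endoplasmic reticulum. Neither Erp44 nor Ero1l passed the rule, and 6 of the 13 genes had a ratio above 1, up to 1.14 for Colgalt1, which overlaps Unc13a by 495 exonic bases.

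In the alternative complement list, in which adipsin cleaves factor B, 8 of 13 genes were measured, 1 was higher and 1 lower (median log2 ratio 0.26). Cfp, properdin, which stabilises the convertase, had 105 counts in the Pink1 siRNA library and 55 in the control library (ratio 1.91, 1.37 to 2.70). C3ar1, the receptor for the C3a fragment, had 18 counts in the Pink1 siRNA library and 57 in the control library (ratio 0.316, 0.175 to 0.545). Neither call held with the widened interval. The membrane inhibitor gene Cd59a was at 1.29, and Serping1 had 23 counts in the Pink1 siRNA library and 18 in the control library. Cfi, Hc, C5ar1 and Masp1 had 0 counts in both libraries.

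In the list around NAD salvage and synthesis, which is not confined to synthesis enzymes, 8 of 16 genes were measured. None was called (median log2 ratio 0.18), beside the ratio of 1.44 for Nampt. The highest ratios were those of the nicotinamide riboside kinase gene Nmrk1 (1.31), Nmnat2, which makes NAD from the Nampt product (1.30), the NAD kinase gene Nadk (1.28) and the methyltransferase gene Nnmt (1.16). Nmrk2 and Qprt had 0 counts. Of 19 retinoid genes 10 were measured, and 1 was higher and 0 lower (median log2 ratio 0.15). It was Aldh1a7, a retinaldehyde dehydrogenase relative, with 1036 counts in the Pink1 siRNA library and 651 in the control library (ratio 1.59, 1.44 to 1.76), which also kept its call with the widened interval. Its close paralog Aldh1a1, with which reads could be shared, was at 1.24, and the retinol enzymes Dhrs3 and Rdh10 at 1.40 and 1.33. Ttr, the carrier partner of Rbp4, and Crabp1, Aldh1a2 and Aldh1a3 had 0 counts.

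Of 20 transcriptional regulators 19 were measured and none was called (median log2 ratio 0.05). Ppargc1a, a coactivator, had the lowest ratio at 0.689 from 102 counts in the Pink1 siRNA library and 148 in the control library. The highest were Klf4 (1.38), Cebpd (1.31, overlapping Spidr by 562 exonic bases) and Rxra (1.25), an early adipogenic factor gene, a C/EBP gene and the partner receptor of PPAR-gamma.

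Among 40 other secreted factors of fat tissue, 22 were measured, 1 was higher and 2 lower (median log2 ratio -0.07). Gdf15, a stress-induced hormone, had 52 counts in the Pink1 siRNA library and 25 in the control library (ratio 2.08, 1.27 to 3.50). Hgf, hepatocyte growth factor, had 42 counts in the Pink1 siRNA library and 66 in the control library (ratio 0.636). Neither call held with the widened interval. Angptl2, an angiopoietin-like factor gene that overlaps Ralgps1 on the opposite strand without shared exonic bases, was at 0.673. The resistin relatives Retnlb and Retnlg had 0 counts in both libraries, as had C1qtnf2, C1qtnf4, C1qtnf7, C1qtnf9, Fgf21, Tnf, Bmp4 and Apela.

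Of 17 acute-phase and NF-kB target genes, a class to which Lcn2 belongs, 14 were measured, 2 were higher and 0 lower (median log2 ratio 0.23). Orm2, an orosomucoid, had 183 counts in the Pink1 siRNA library and 85 in the control library (ratio 2.15, 1.66 to 2.82) and kept its call with the widened interval, though its close paralog Orm1 could share reads. Tnfaip3, the NF-kB inhibitor A20, had 65 counts in the Pink1 siRNA library and 43 in the control library (ratio 1.51, 1.01 to 2.28), just past the rule. With total-count scaling the list had 1 gene higher and 1 lower, and with upper-quartile scaling or 5 added before the log it had 1 higher. Saa3, serum amyloid A, was at 1.41 with an interval that included 1, and Cxcl5, a neutrophil chemokine, was on the other side at 0.683 (0.603 to 0.774). Saa1 and Saa2 had 0 counts.

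**Figure D5:**
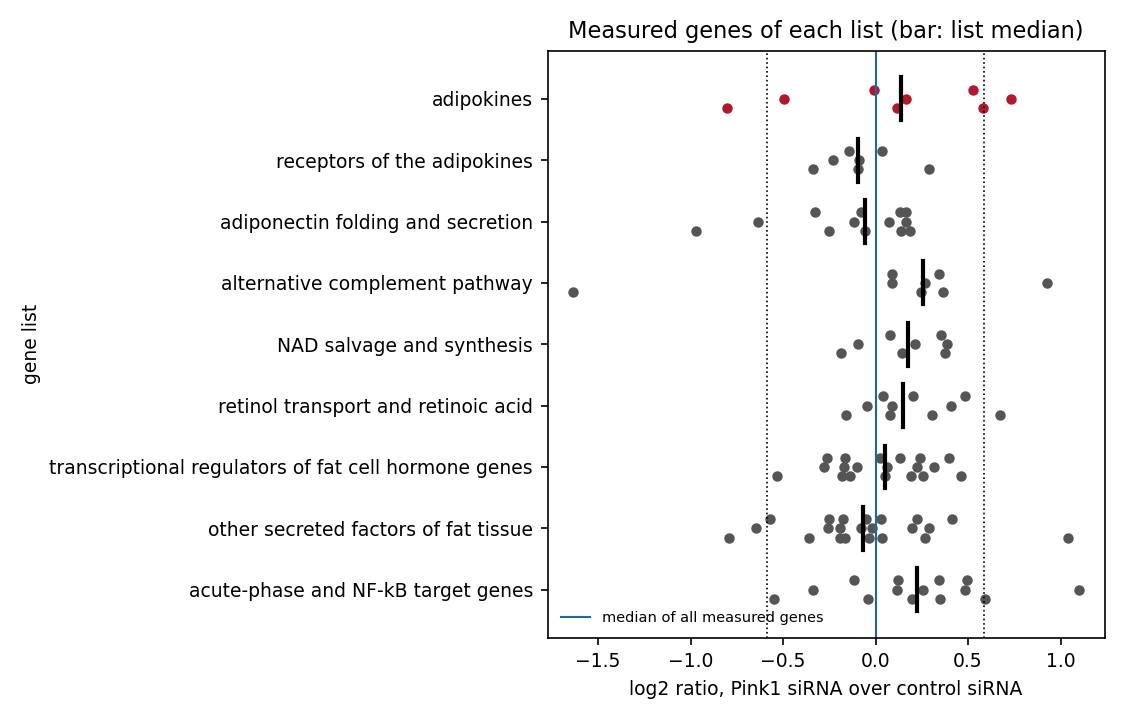
Log2 ratio, Pink1 siRNA over control siRNA, of each measured gene in the 8 lists (grey) and of the adipokines (red), with list medians as black bars. The blue line is the median of all measured genes and dotted lines mark ratios of 1.5. List medians lie between -0.09 and 0.26, and most genes lie between the dotted lines.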

How the data were processed

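RNA was extracted with Trizol and made into libraries with a Quant-Seq kit, per the labels' protocols. The submitters' processing notes name bcl2fastq 2.20.0.422, Bowtie2 and bedtools with mm10. Neither these notes nor the labels state the annotation, the strand setting or the handling of multiply mapped reads. The deposited values are raw read counts per gene symbol, 1 table of 23282 rows per library. No molecular identifiers are mentioned, so intervals and floors cover counting error only.

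Counts were scaled by TMM effective library sizes (edgeR 4.0.16, R 4.3.3) to CPM, and 0.5 was added before log2 ratios. With 1 library per group no test was run. Ratios carry the exact conditional binomial (Clopper-Pearson) 95% interval and CPM the exact Poisson interval (SciPy 1.17.1), with 3 counts as the limit for a count of 0. The widened interval divides both counts by the mean excess over binomial variance in the gene's twentieth of level. Technical spread and real differences between the cultures both enter that excess, and in the highest twentieth, which holds Adipoq, it reached 128. The scaling, ratios and counting intervals were checked on simulated Poisson counts, which lack the excess spread seen here. The widened interval and the calls made with it were not checked in this way. Coordinates and exons came from GENCODE M21 (GRCm38, which is mm10). Of the listed symbols, 2 were matched as RefSeq synonyms. All receptors and up to 4 measured genes of each other list with the largest log2 ratios in size were named, with genes at 0 counts and genes overlapping an adipokine. Other genes, named beside these for their role or paralogy (Dlk1 and Orm1), were chosen after their values were seen. A gene that the rule takes is not reported here. The adipokines, lists and thresholds were chosen with earlier results of these data known.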

Additional observations from a re-analysis of the deposited data

How the results depend on the processing

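With 1 library per group, leaving out a library was not possible. No paired analysis was possible because each group has 1 library. Of 58 log2 ratios of adipokines under other settings (total-count, DESeq2 1.42.0 and upper-quartile scaling, Rn45s left out, 5 added before the log, no filter, a summed minimum of 200, and sums with the overlapping gene), 0 changed sign and 0 left their counting interval. The settings with no filter or a summed minimum of 200 cannot alter a log2 ratio, so those values were fixed in advance. Total-count scaling moved all log2 ratios by -0.04, and leaving out Rn45s moved them by -5.9e-09. Adipokines called higher numbered 0 at a 2-fold rule and 0 with the widened interval, against 1 (Lcn2). Adipokines called lower numbered 0 at a 2-fold rule and 0 with Rarres2 and Nampt, which overlap other genes, left out, against 1 (Rarres2). Of the listed pathway genes, 5 were called higher. That count was 7 with no filter, and 4 with total-count scaling, upper-quartile scaling or 5 added before the log. It was 2 at a minimum of 200, 2 at a 2-fold rule and 2 with the widened interval. Those called lower also numbered 5, and were 7 with total-count scaling and 10 with no filter. They were 2 at a minimum of 200, 1 at a 2-fold rule and 2 with the widened interval. Depth limits Metrnl, whose interval includes 1, and the genes at 0 counts.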
